A study of Mus musculus with 23 samples.

Results

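The genes described here are 10 protease inhibitors of the pancreas, chosen by name from a list of inhibitors of trypsin and other proteases: Spink3, Serpini2, Serpini1, Pi15, Serpinb1a, Serpinb6a, Cst3, A2m, Itih4 and Slpi. They are 10 of the 18512 gene symbols that were counted. All 10 were found, with Spink3 listed under its other symbol, Spink1, which is used below. RNA was sequenced from the pancreas head of 23 C57BL/6 mice, adults of both sexes, 6 to 8 weeks old. The baseline group held 8 uninjured mice (4 female, 4 male, mice 1 to 8). The day 7 group held 8 mice (4 female, 4 male, mice 9 to 16) and the day 14 group 7 mice (3 female, 4 male, mice 17 to 19 and 21 to 24), killed 7 and 14 days post-injury. Injury was acute pancreatitis from repeated intraperitoneal injections of caerulein, a cholecystokinin analogue that overstimulates acinar cells, at 50 µg per kg. The labels name no engineered allele. The head is a mixture of acinar, ductal, islet, stromal and immune cells, so a lower level in it can come from fewer cells of a type or from less RNA per cell, which cannot be told apart in these libraries.

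Acinar cells make the digestive proteases as inactive zymogens, and the early activation of trypsinogen inside the cell is a known event in acute pancreatitis. Protease inhibitors guard against it at several points. Spink1, a Kazal inhibitor packed with the zymogens, blocks trypsin itself. Serpins trap serine proteases by a single-use conformational change. Serpini2 is a serpin of the exocrine pancreas and Serpini1, neuroserpin, inhibits tissue plasminogen activator. Serpinb1a and Serpinb6a stay inside the cell, and Serpinb1a inhibits the neutrophil elastase family. Slpi, the secretory leukocyte protease inhibitor, also acts on neutrophil elastase at mucosal surfaces. Cst3, cystatin C, blocks cysteine proteases such as the cathepsins. A2m is the broad protease trap alpha-2-macroglobulin, Itih4 a secreted relative of the inter-alpha-trypsin inhibitor heavy chains, and Pi15 a secreted protein of the CAP family first named as a trypsin inhibitor.

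In the mouse annotation of build GRCm38 (mm10) the members are spread over several chromosomes. Serpini2 (chr3:75242370-75270078, minus strand) and Serpini1 (chr3:75557547-75643495, plus strand) lie near each other on chromosome 3, and Serpinb1a (chr13:32842092-32851185, minus strand) and Serpinb6a (chr13:33917918-34002794, minus strand) on chromosome 13. Cst3 (chr2:148871722-148875692, minus strand) and Slpi (chr2:164354070-164389095, minus strand) are on chromosome 2. Pi15 is at chr1:17601901-17630939 and Itih4 at chr14:30886476-30902353, both on the plus strand. A2m is at chr6:121635376-121679227, on the plus strand, and Spink1 is on chromosome 18. Serpinb6a overlaps other genes on the opposite strand, Nqo2 and Ripk1 among them, and Pi15 overlaps an antisense gene. Whether the counting used strand is not given in the sources used here, so reads of such neighbours may be mixed.

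Baseline libraries held 7059890 to 8868360 counts, those of day 7 8272821 to 9567446, and those of day 14 8537889 to 9417077. The 20 most abundant genes, mostly digestive enzymes, took a mean of 69.4% of the counts at baseline, 60.3% at day 7 and 65.0% at day 14. Levels are given below as CPM (library-size scaled counts) after TMM scaling, which sets libraries against each other by their middle genes rather than by their totals. Of 9 acinar marker genes, 8 were lower at day 7 than at baseline, and their summed level ranged between 212630 and 308943 CPM at baseline, between 119181 and 183878 at day 7 and between 195348 and 235639 at day 14. Fibroblast markers were higher at day 7 for 6 of 7 genes (summed level 319 to 632, 599 to 1145 and 504 to 712 CPM in the 3 groups), as were macrophage markers for 6 of 7 (41.6 to 128, 77.7 to 171 and 59.8 to 102 CPM). Islet markers were higher for 4 of 7 genes and duct markers for 2 of 6, and endothelial markers were lower for 2 of 5. Of all genes tested, 8.86% were higher and 9.7% lower at day 7. One day 14 female, mouse 19, stood apart by its level of hepatocyte marker genes, with Alb (albumin) at 364 CPM against 24.7 in mouse 21 and at most 2.3 in every other library.

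Before injury, Serpini2 and Spink1 were by far the most abundant of the inhibitors, and A2m was all but missing. Per kilobase of exon, Serpini2 reached 1771 ± 339 CPM (SD, n = 8) and Spink1 1697 ± 198. The ranges of these 2 genes overlapped, and Serpini2 was the higher in 6 of 8 mice. Cst3 came next, and Spink1 stood 10.3 times above it on this scale. Cst3 was 3.38 times Serpinb1a, which reached 48.8 ± 7.54 CPM per kilobase. Serpinb6a followed at 6.36 ± 0.884 and Serpini1 at 5.30 ± 0.761, with Serpinb6a the higher in 8 of 8 mice and overlapping ranges. Serpini1 was 2.42 times Slpi and Slpi 5.32 times Pi15. Itih4 had no single place in this order: per kilobase the 4 females had 12.2 to 22.3 CPM, above Serpinb6a in every mouse, and the 4 males 0.612 to 1.09 CPM, below Slpi in every male. These levels are a description of the order, and the differences between genes were not tested.

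**Figure D1:**
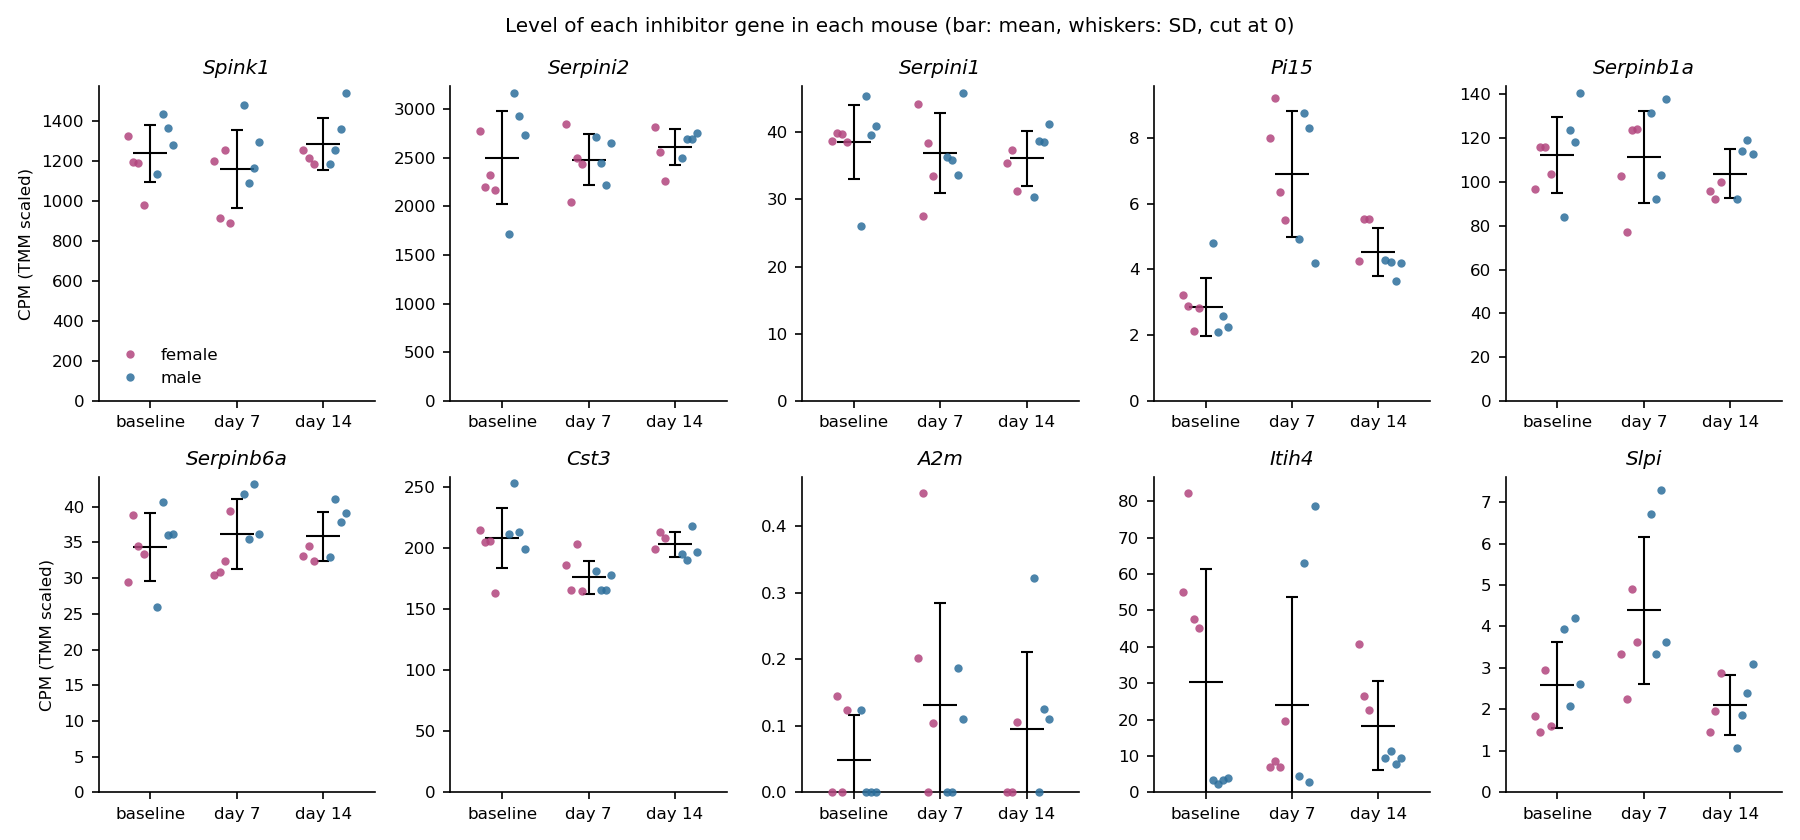
Level of each of the 10 inhibitors in each mouse, in TMM-scaled CPM on the vertical axis, with 1 panel per gene and its own axis. Points are mice by sex, and the line and whiskers are the group mean and SD, cut at 0 (8 baseline, 8 day 7 and 7 day 14 mice). Pi15 sits higher at day 7, Slpi is higher at day 7 and Cst3 lower, while Itih4 splits by sex at baseline.

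At 7 days post-injury, 3 of the 9 inhibitors that could be tested had changed: Pi15 and Slpi were higher and Cst3 was lower. Among all 12195 genes tested, 18.6% were called at this comparison (8.86% higher and 9.7% lower), so a share of 3 in 9 is read against that background. With a fold change of at least 1.5 as well, the rule for a DEG, 2 members passed, against 5.13% of all genes. The median log2 fold change of the members was -0.01, and that of all genes 0.02. At day 14 none of the 9 was called by edgeR against baseline, where 1.57% of all genes were (1.05% higher, 0.525% lower and 0.787% as DEGs), and DESeq2 also called none. A single member had an unadjusted p under 0.05 at day 14, against 13.3% of all genes. Both comparisons use the same 8 baseline mice. Between day 14 and day 7 directly, 1 member was called, Slpi, which was lower at day 14 and a DEG. Of all genes 1.29% were called (1.01% higher, 0.279% lower, 0.377% as DEGs). For none of the 9 members were 2 time groups fully apart in level, which held for 2.75% of all genes at day 7 and 0.664% at day 14, each against baseline, and for 0.549% from one recovery time to the other.

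**Figure D2:**
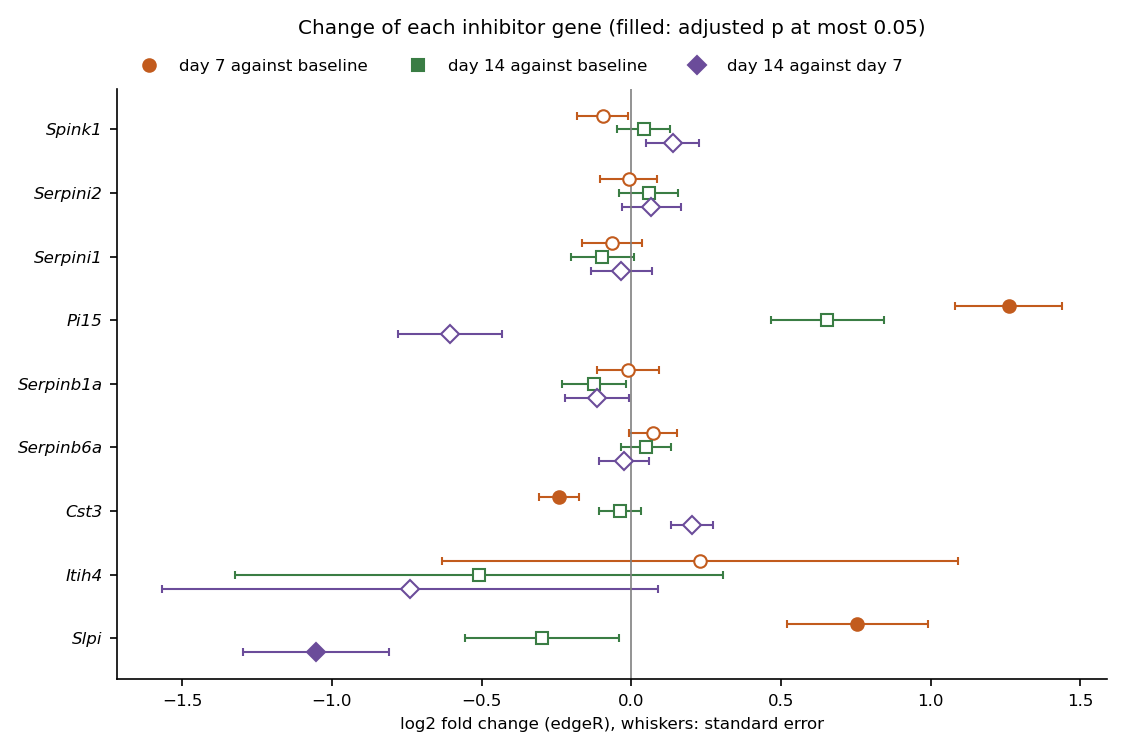
Log2 fold change of each of the 9 tested inhibitors for day 7 against baseline (circles), day 14 against baseline (squares) and day 14 against day 7 (diamonds), with whiskers of 1 SE from the quasi-likelihood fit. Filled symbols passed an adjusted p of 0.05: Pi15, Slpi and Cst3 at day 7, none at day 14 against baseline, and Slpi between day 14 and day 7.

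Pi15 changed the most among the called members. Its level was 2.08 CPM in the lowest, 2.71 in the median and 4.81 in the highest baseline mouse. At day 7 the corresponding values were 4.18, 7.18 and 9.22 CPM, and at day 14 they were 3.64, 4.26 and 5.55. In 7 of 8 day 7 mice Pi15 was above every baseline mouse, and the remaining one overlapped with the single high baseline mouse, mouse 5. The log2 fold change at day 7 was 1.26 ± 0.18 (SE), a 2.4-fold rise (adjusted p = 1.62e-05). Against baseline the day 14 difference was 0.66 ± 0.19 and missed the threshold (adjusted p = 0.0767), but without baseline mouse 5 it was 0.85 and passed (adjusted p = 0.00874). From day 7 to day 14 the difference was -0.61 ± 0.17 (adjusted p = 0.0706), and it passed without day 7 mouse 16 (-0.67, adjusted p = 0.0374). These levels rest on 12 to 39 counts per baseline library, 38 to 123 per day 7 library and 29 to 52 per day 14 library. Markers of fibroblasts and macrophages were higher at day 7 too, in the ranges given above, and their part in the rise of Pi15 was not tested.

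Slpi, the other inhibitor that rose, was low and variable. Baseline mice had 1.45 CPM at the lowest, 2.35 at the median and 4.20 at the highest, and day 7 mice 2.25, 3.64 and 7.28. At day 14 the values were 1.07, 1.96 and 3.09 CPM. The groups overlapped throughout: 3 of 8 day 7 mice were above every baseline mouse, and 4 of 7 day 14 mice were below every day 7 mouse. Slpi was higher at day 7 than at baseline by 0.75 ± 0.24 on the log2 scale (adjusted p = 0.0243) and lower at day 14 than at day 7 (-1.05 ± 0.24, adjusted p = 0.0249). At day 14 it differed from baseline by -0.30 ± 0.26 (adjusted p = 0.688). Single mice decided both calls. The rise at day 7 missed the threshold without baseline mouse 2 (adjusted p = 0.0547) or 6 (0.0510), or day 7 mouse 11 (0.0504), 13 (0.0568) or 15 (0.0698). The difference between day 14 and day 7 missed it without mouse 15 (adjusted p = 0.0695), 17 (0.0580), 22 (0.0743) or 23 (0.0548). Baseline libraries held 10 to 32 Slpi counts, day 7 libraries 30 to 78 and day 14 libraries 10 to 28. Slpi is also made by leukocytes and mucosal epithelium. Of 6 neutrophil markers 5 were counted. Their summed level had a median of 0.503 CPM at baseline (up to 17.7), 1.58 at day 7 (up to 4.11) and 0.377 at day 14 (up to 1.60). These markers were too low for the test, and their part in the Slpi difference was not tested.

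Cst3 fell at day 7 by a small amount. Its level ran from 163 through a median of 209 to 254 CPM at baseline, and from 165 through 172 to 203 at day 7. At day 14 it ran from 191 through 199 to 219 CPM, inside the baseline range. No day 7 mouse was below all baseline mice, and the mean went from 219.7 to 172.8 CPM in males and from 197.5 to 180.2 CPM in females. The day 7 difference was -0.24 ± 0.07 (adjusted p = 0.0114), under the fold change of a DEG, and the day 14 difference -0.04 ± 0.07 (adjusted p = 0.893). Its direction at day 7 depends on the scaling: by total counts it was 0.22, on a scale where the median of all genes stood at 0.47. Of the 8 cysteine cathepsins listed, the kind of protease that cystatin C blocks, 2 rose at day 7, against 8.86% of all genes. They were Ctsh (0.73, adjusted p = 0.00425) and Ctsk (0.78, adjusted p = 0.00551). The median of the 8 was 0.23, none was called at day 14 against baseline, and a link to Cst3 was not tested.

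Spink1 and Serpini2, the abundant acinar inhibitors, did not pass the test at either time. Spink1 was 979, 1239 and 1432 CPM in the lowest, median and highest baseline mouse, 891, 1180 and 1477 at day 7, and 1183, 1253 and 1542 at day 14. The 3 groups overlapped over most of their range. Its log2 difference from baseline was -0.10 ± 0.08 at day 7 (adjusted p = 0.457) and 0.04 ± 0.09 at day 14 (adjusted p = 0.915). Serpini2 was 1715, 2523 and 3164 CPM at baseline, 2041, 2473 and 2842 at day 7, and 2259, 2691 and 2810 at day 14, so the later groups lay within the baseline range. It differed by -0.01 ± 0.10 at day 7 (adjusted p = 0.964) and 0.06 ± 0.10 at day 14 (adjusted p = 0.882). Their neighbours in the acinar cell moved over the same days: the trypsinogen Prss2 fell by 0.94 on the log2 scale at day 7 and the procarboxypeptidase Cpa1 by 0.87.

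Set against the trypsinogens, Spink1 was higher after injury. For each mouse the Spink1 count was divided by the summed count of 11 trypsinogen genes, a ratio that no scaling between libraries can move. At baseline there were 9.58 ± 0.439 Spink1 counts per 1000 trypsinogen counts (SD, n = 8, range 9.26 to 10.6). At day 7 there were 14.4 ± 1.32 (n = 8, range 12.3 to 16.01) and at day 14 12.4 ± 1.04 (n = 7, range 11.7 to 14.6). Neither later group overlapped with baseline. The ratio was not computed for other genes, so no share over all genes stands beside it. Scaled by total counts, Spink1 rose by 0.36 on the log2 scale at day 7 and 0.26 at day 14. The median of all genes rose by 0.47 and 0.22 with that scaling, above Spink1 at day 7 and slightly below it at day 14. The higher ratio at day 7 therefore does not set Spink1 apart from other genes. The ratio was 1.499-fold its baseline value at day 7 and 1.30-fold at day 14, each with p = 0.0001554 in a two-sided exact permutation test over mice (adjusted p = 0.0002331 over 3 comparisons). Day 14 was below day 7 by 0.21 on the log2 scale, with overlapping groups (log2 difference -0.21, exact permutation p = 0.00979). Most trypsinogen counts came from Prss2, Try4 and 2210010C04Rik, and with those 3 alone in the denominator the ratio was 10.6, 16.4 and 13.9 at baseline, day 7 and day 14.

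**Figure D3:**
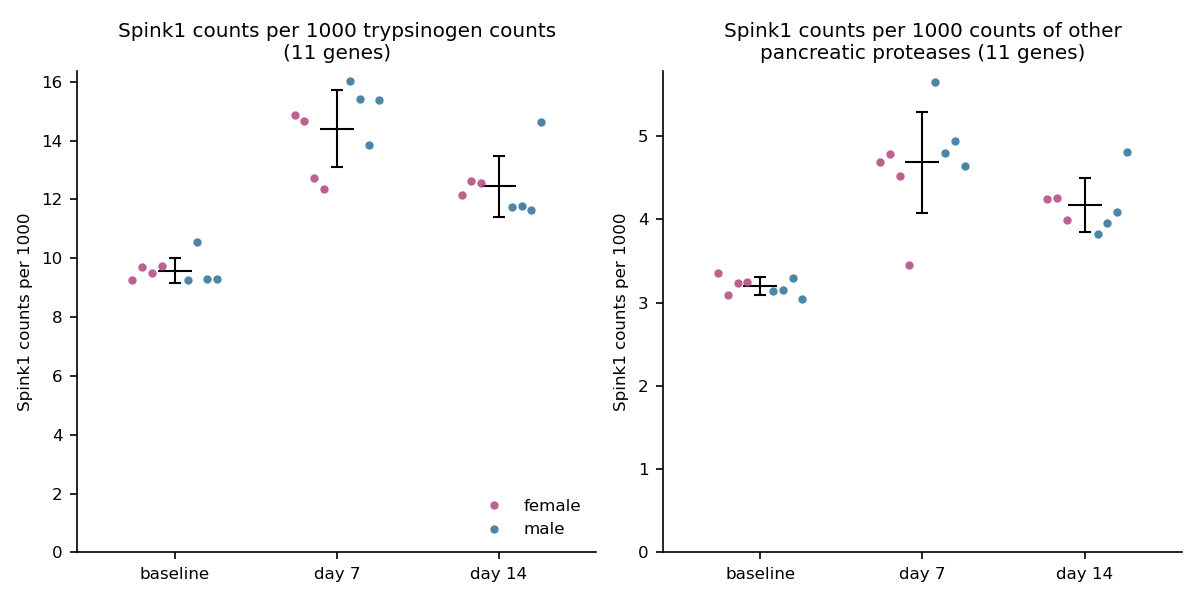
Spink1 counts per 1000 counts of 11 trypsinogens (left) and of 11 other pancreatic proteases (right) in each mouse, on linear axes from 0, by group and sex, with the group mean and SD. In the left panel all baseline mice sit at or below 10.6, under every day 7 mouse (12.3 to 16.01) and every day 14 mouse (11.7 to 14.6).

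The same held against the other digestive proteases. Per 1000 counts of 11 chymotrypsinogen, elastase, carboxypeptidase and related genes, Spink1 was at 3.20 ± 0.108 at baseline, 4.68 ± 0.606 at day 7 and 4.17 ± 0.323 at day 14. With that denominator the day 14 and day 7 groups did not pass the test (log2 difference -0.16, exact permutation p = 0.0793). In the whole library, Spink1 took 0.105% of counts at baseline, 0.135% at day 7 and 0.127% at day 14, and Serpini2 0.212%, 0.290% and 0.258%. The 10 members together took 0.354 ± 0.0307%, 0.471 ± 0.0289% and 0.426 ± 0.0200%. These shares were higher while the share of the 20 most abundant genes was lower. With those 20 genes left out of the total, the Spink1 share differed from baseline by -0.00400 percentage points at day 7, so its direction depends on that denominator.

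The trypsinogens did not move as 1 block. At day 7, 6 of the 11 rose and 4 fell, against 8.86% and 9.7% of all genes. The rises were in copies with lower levels before injury: Gm2663 had at most 0.740 CPM at baseline, between 85.9 and 298 at day 7 and between 15.5 and 31.0 at day 14. The gene 1810009J06Rik went from 0.484 to 2.08 CPM at baseline to 32.1 to 154 at day 7. The falls included Prss2, Try4 and 2210010C04Rik, the copies with most of the counts, with Prss2 at 30498 to 54596 CPM at baseline and 16808 to 27999 at day 7. Trypsinogen copies share sequence, and only uniquely mapped fragments were counted. Counts of some copies may thus be too low, and so may the sums under the Spink1 ratio, and the split between copies is uncertain. In the annotation's exons, 23.4% of 75-base windows of Gm2663 and 56.1% of those of Try4 were found nowhere else among the genes compared, against 99.1% for Prss2, 100% for 2210010C04Rik and 99.6% or more for each inhibitor.

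The 3 serpins that act inside cells or on plasminogen activators showed no change that passed the test. Serpini1 was at 26.01, 39.7 and 45.5 CPM in the lowest, median and highest baseline mouse, 27.5, 36.1 and 45.9 at day 7, and 30.3, 37.3 and 41.3 at day 14. Serpinb1a was at 84.1, 116 and 141 CPM at baseline, 77.3, 113 and 138 at day 7, and 92.1, 100.2 and 119 at day 14. Serpinb6a was at 26.01, 35.3 and 40.6 CPM at baseline, 30.5, 35.8 and 43.2 at day 7, and 32.4, 34.5 and 41.0 at day 14. For each gene the groups covered nearly the same range. The log2 differences from baseline were -0.06 ± 0.10 and -0.10 ± 0.10 for Serpini1 at day 7 and day 14, -0.01 ± 0.10 and -0.12 ± 0.11 for Serpinb1a, and 0.07 ± 0.08 and 0.05 ± 0.08 for Serpinb6a. Their adjusted p ranged from 0.569 to 0.959.

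A2m, the broad-spectrum trap, was at or near 0 in the pancreas. No library had more than 1 count at baseline, 6 at day 7 or 3 at day 14, or 0.145, 0.450 and 0.322 CPM. No test was run on so few counts. In mouse 19, the library with the highest Alb, A2m was at 0.106 CPM. Its relatives Pzp and Mug1, named after their values were seen, had 403 and 283 counts in their highest day 14 library. They had at most 2 and 0 in any day 7 library. These are group maxima, and neither gene was tested. Hepatocyte markers at day 14 had a summed level of 498 CPM at most, against a median of 2.10.

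Itih4 had very different levels in the females and males of a group, although no difference between the sexes passed the edgeR test. At baseline the 4 females had 55.1, 82.1, 47.6 and 45.1 CPM and the 4 males 3.45, 2.26, 3.39 and 4.005 CPM. At day 7 the females had 7.09, 8.62, 6.91 and 19.5 CPM, and the males 4.61, 63.0, 2.99 and 78.6 CPM. At day 14 the 3 females had 40.7, 26.5 and 22.5 CPM and the 4 males 9.46, 11.5, 7.91 and 9.50 CPM. Females and males were fully apart at baseline and at day 14, with females higher, and overlapped at day 7, where 2 of the males, mice 14 and 16, held the highest levels and the other 2 lay below every female. Between the sexes, 3.3% of tested genes did not overlap at baseline, 3.6% at day 7 and 7.87% at day 14.

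**Figure D4:**
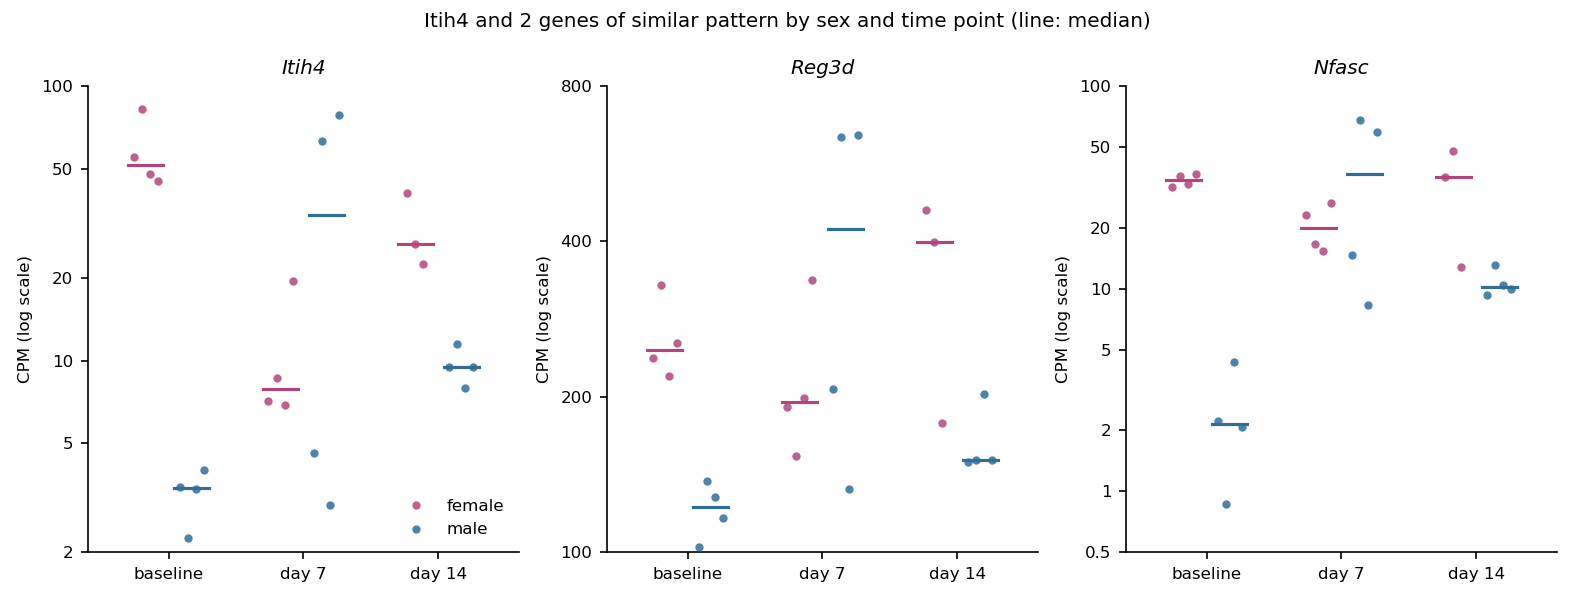
Level of Itih4, and of Reg3d and Nfasc, 2 genes with a like pattern over the mice, by sex and time, in TMM-scaled CPM on log axes, with a line at each median. Females lie above all males for Itih4 at baseline (45.1 to 82.1 against 2.26 to 4.005 CPM) and at day 14 (22.5 to 40.7 against 7.91 to 11.5 CPM), and at day 7 males 14 and 16 lie above all females.

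In the fit over both sexes and the 3 times, the male against female log2 difference of Itih4 was -4.12 ± 0.87 at baseline (adjusted p = 0.106), 1.83 ± 0.70 at day 7 (adjusted p = 0.632) and -1.64 ± 0.76 at day 14 (adjusted p = 0.805). None passed with edgeR, where 0.0696% of all genes were called between the sexes within each time (and 6.11%, 6.41% and 6.07% had an unadjusted p under 0.05 at baseline, day 7 and day 14). The difference at baseline passed with DESeq2 (-4.13, adjusted p = 4.12e-06). For the interaction of sex and time, which asks whether the sexes differ by unequal amounts at the 3 times, Itih4 had an unadjusted p of 0.000192 and an adjusted p of 0.215 with edgeR, and an adjusted p of 0.000158 with DESeq2. edgeR called 0 of 12933 genes for this interaction, with 566 genes (4.38%) at an unadjusted p under 0.05, and DESeq2 called 18 genes. Leaving out each mouse in turn gave adjusted p-values of 0.0250 to 0.554 for Itih4 with edgeR, and only without day 7 mouse 15, the male with 2.99 CPM, was it called. With sex as a covariate, as in the comparison of times, Itih4 differed from baseline by 0.23 ± 0.86 at day 7 and -0.51 ± 0.81 at day 14. These errors hold the split between the sexes. Without that covariate, the sexes pooled, the day 7 difference turned sign to -0.36.

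For the other members no difference between the sexes passed the test. Over all mice, with time in the fit, Spink1 was 0.18 ± 0.07 higher in males on the log2 scale (unadjusted p = 0.0192), Slpi 0.46 (unadjusted p = 0.0284) and Serpinb6a 0.15 (unadjusted p = 0.0386). None passed after adjustment over all genes (adjusted p of 0.405, 0.460 and 0.515), where 0.574% of genes were called (0.279% higher in males and 0.295% lower), and DESeq2 called none of the members either. An unadjusted p under 0.05 was seen for 3 of 9 members and for 9% of all genes.

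The wider set of inhibitors was counted from 10 lists of the serpin, Kazal, Kunitz, WAP, cystatin, inter-alpha-trypsin inhibitor, macroglobulin and CAP families. It held 72 further genes, of which 61 were counted and 22 were abundant enough to test. At day 7, 8 of these 22 rose and 1 fell, 6 as DEGs, and their median log2 fold change was 0.56. Among all genes 8.86% rose, 9.7% fell and 5.13% were DEGs at day 7. The filter works by time point, so a low gene that is high in 1 group alone could enter the 22. With at least 10 counts in every mouse instead, 13 were tested, 6 rose and 1 fell, and the median was 0.41. Of all genes 21.2% were called with that filter. At day 14, 2 of the 22 were higher than baseline, against 1.05% of all genes, with a median of 0.27. Ambp is the precursor of the light chain bikunin, which pairs with inter-alpha-trypsin inhibitor heavy chains. It rose by 1.07 on the log2 scale at day 7 (adjusted p = 0.00012) and was still higher at day 14 (1.24, adjusted p = 0.000248). Itih2, a heavy chain of the same complex, rose by 0.41 at day 7 (adjusted p = 0.000198) and was 0.42 above baseline at day 14 (adjusted p = 0.00157). Baseline mice had 27.1 to 36.1 CPM of Itih2, day 7 mice 35.3 to 53.5 and day 14 mice 37.1 to 48.8.

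Among the serpins of that set, Serpina10, which blocks coagulation factor Xa with protein Z, rose by 1.18 at day 7 (adjusted p = 0.0103). Serping1, the C1 inhibitor of complement, rose by 0.76 (adjusted p = 0.00704) and Serpinb8 by 0.78 (adjusted p = 0.00759). The other rises were those of Tfpi, the tissue factor pathway inhibitor (0.67, adjusted p = 0.0470), Itih5 (0.49, adjusted p = 0.00924) and Pi16, a CAP relative of Pi15 (0.76, adjusted p = 0.0178). Spint1, a Kunitz inhibitor of the epithelial surface that acts on the serine protease matriptase, fell by 0.35 (adjusted p = 0.000747). Its level was 49.6 to 62.2 CPM at baseline and 33.3 to 50.7 at day 7. No cystatin relative of Cst3 was called, the nearest being Fetub at day 7 (0.82, adjusted p = 0.0684) and Kng2 at day 14 (1.19, adjusted p = 0.104). No other Kazal, WAP or macroglobulin gene had enough counts to test. Several of these genes are plasma proteins that the liver also makes, and without mouse 19 the counts stayed at 8 higher and 1 lower at day 7 and 2 higher at day 14, with Ambp then at 0.998 (adjusted p = 0.000195).

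**Figure D5:**
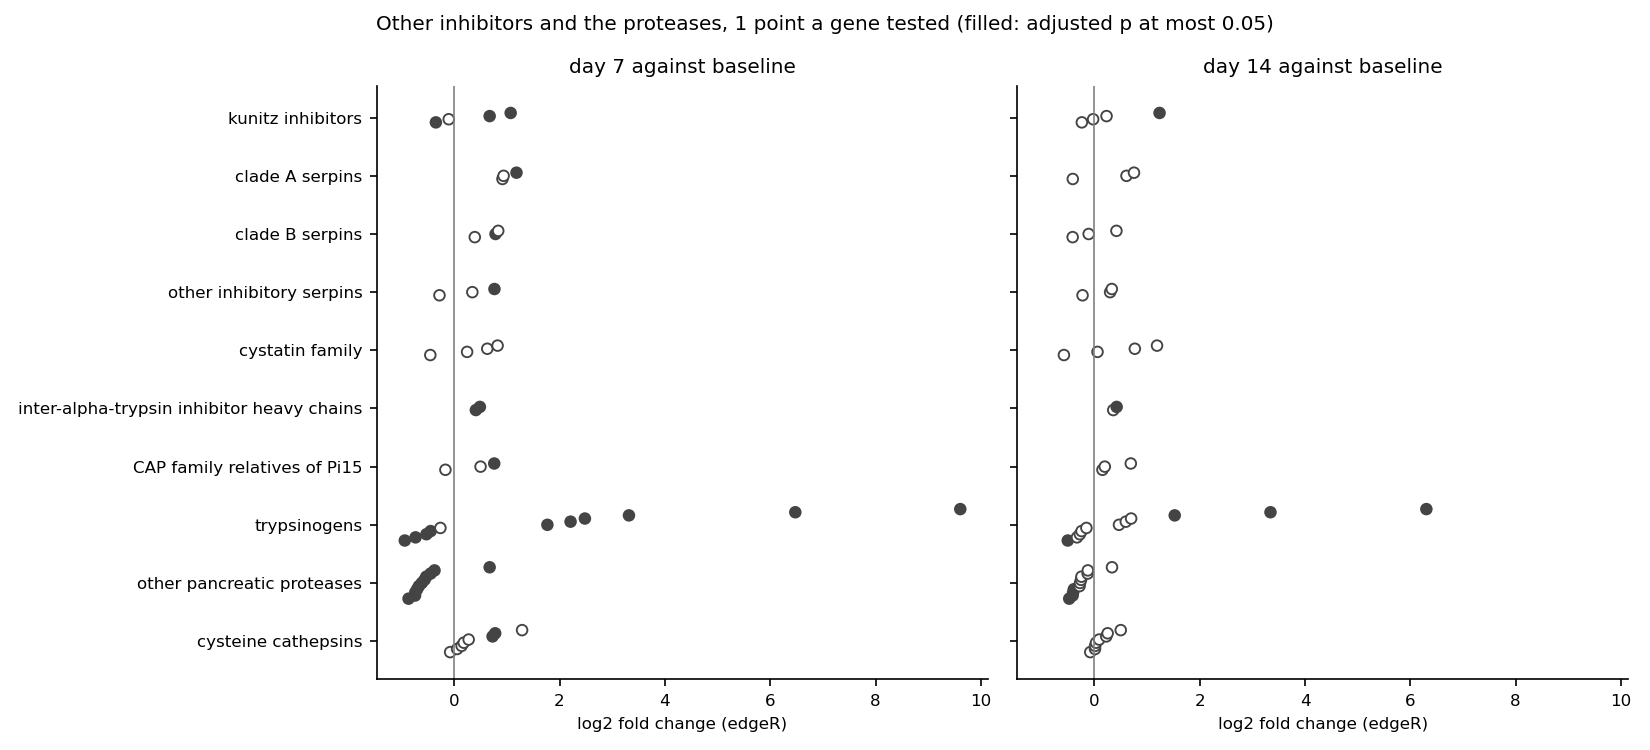
Log2 fold changes at day 7 (left) and day 14 (right) against baseline for the tested genes of 7 inhibitor lists and 3 protease lists, 1 point per gene, filled where the adjusted p was at most 0.05. The 22 inhibitors lie mostly above 0 at day 7, with a median of 0.56. It was 0.41 for the 13 with at least 10 counts in every mouse. The pancreatic proteases other than trypsinogens lie below 0 for 10 of 11 genes.

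The proteases on the other side of the balance were 37 listed genes, 34 of them counted and 30 tested. At day 7, 9 rose and 14 fell, 17 as DEGs, against 8.86%, 9.7% and 5.13% of all genes. With at least 10 counts in every mouse, 26 were tested at day 7, of which 7 rose and 14 fell. At day 14, 3 were higher than baseline and 5 lower, against 1.05% and 0.525% of all genes. Without mouse 19 the counts at day 14 were 3 higher and 2 lower. Between day 14 and day 7, 5 were higher at day 14 and 6 lower, against 1.01% and 0.279% of all genes. Of the 11 digestive proteases other than trypsinogens, 10 fell at day 7 and 1 rose. Cpa1 went from 42568 to 64057 CPM at baseline to 22136 to 35037, and Cela3a from 24.2 to 37.8 CPM to 31.4 to 61.1. The serine proteases of leukocytes, which include targets of Slpi and of Serpinb1a, were too low to test. Among these proteases Prtn3 (proteinase 3), named after its values were seen, had at most 2 counts in any library.

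Levels of the members were also compared with those of all other tested genes over the 23 mice, after the mean of each time and sex group was removed, by Pearson's r as a description. The libraries share depth and acinar content, so such correlations are no sign of shared function. Several members also followed the scaling factor of the library. Their r with the log2 TMM factor was -0.77 for Spink1, -0.76 for Serpinb1a, -0.74 for Serpini1 and -0.73 for Serpini2 and Cst3. It was 0.68 for Pi15, -0.32 for Serpinb6a, -0.18 for Slpi and -0.14 for Itih4. Spink1 was most like Cuzd1 (r = 0.967) and Pdia2 (0.939), genes of the acinar secretory pathway, and Serpini2 most like Ctage5 (0.918) and Lin7c (0.909). Itih4 was most like Reg3a (0.875), Reg3d (0.864) and Nfasc (0.814), the first 2 of them secreted lectins of the regenerating family. The 2 day 7 males with high Itih4, mice 14 and 16, had Reg3a at 873 and 651 CPM. Pi15 was most like Col27a1 (0.865) and Notch3 (0.851). Cst3 was most like Vkorc1 (0.882), Serpinb1a like Tob1 (0.913), Serpini1 like Spcs1 (0.909) and Serpinb6a like Vps36 (0.842). Slpi had no gene as near, with Oaf the nearest at 0.748.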

How the data were processed

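Total RNA of the pancreas head was extracted with TRIzol, treated with DNase I, depleted of ribosomal RNA and made into libraries with a stranded Illumina TruSeq kit. Per the labels and the study's methods, the authors trimmed 75-base paired reads with Trim Galore and cutadapt, aligned them to mm10 with STAR 2.5.2a and counted uniquely mapped fragments per gene with featureCounts. The deposited values are raw counts for 18512 symbols in each of 23 mice, and each mouse is 1 biological replicate.

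Here, counts were scaled by TMM and tested with edgeR 4.0.16 (quasi-likelihood F test, robust) in R 4.3.3. Genes passed filterByExpr by time point, which left 12195 genes for time with sex as a covariate and 12933 for the 6 groups of sex and time. P-values were adjusted by Benjamini-Hochberg over all genes. Genes with an adjusted p of 0.05 or less were called, and a DEG also had a fold change of at least 1.5. SEs were derived from the log2 fold change and the root of its F statistic. CPM per kilobase uses union exon lengths. Ratios and shares of counts were tested by two-sided exact permutation over mice. Alternatives included DESeq2 1.42.0, other scalings and filters, and leaving out each mouse. Contrasts of the sexes within a time point were added after the data were seen. The model fit was tested on simulated counts with known changes. The members and lists were chosen with earlier results of these data known. All 10 members are named, with up to 4 genes per list by smallest p, and Cela3a, Pzp, Mug1 and Prtn3 were added after their values were seen.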

Additional observations from a re-analysis of the deposited data

Results flagged for a closer look

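In 4 of 30 groups of mice examined, 1 mouse stood far from the rest by Dixon's test at the 95% level, which chance gives in about 1 of 20 groups. Serpini1 was lowest at baseline in mouse 5, a male, at 26.01 CPM, with the nearest mouse at 38.5. The same mouse had the highest baseline Pi15, at 4.81 CPM, with the nearest at 3.22. Spink1 per 1000 trypsinogen counts was highest at baseline in mouse 6, at 10.6 against 9.74 in the nearest mouse, and highest at day 14 in mouse 24, at 14.6 against 12.6.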

How the results depend on the processing

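Scaling by total counts mattered most. It moved the median of all genes by 0.47 at day 7, 0.22 at day 14 and -0.25 between them (log2), and members called became 8, 5 and 5, where 76.6%, 24.9% and 33.7% of all genes were called. Log2 differences that turned sign with it were, at day 7, 0.22 for Cst3, 0.43 for Serpinb1a, 0.38 for Serpini1, 0.45 for Serpini2 and 0.36 for Spink1. At day 14 they were 0.18 for Cst3, 0.093 for Serpinb1a and 0.12 for Serpini1, and from day 7 to day 14 -0.032 for Cst3, -0.17 for Serpini2 and -0.093 for Spink1. Between males and females they were -0.053 for Cst3 and -0.035 for Serpini1, at baseline -0.011 for Serpinb1a and -0.10 for Serpinb6a, and at day 7 -0.014 for Serpini2. Total counts without the 20 most abundant genes gave 0.064 for Serpinb1a, 0.013 for Serpini1 and 0.072 for Serpini2 at day 7, -0.0040 for Cst3 between the sexes and -0.013 for Serpinb6a between the sexes at baseline. At least 10 counts in every mouse gave 0.010 for Serpinb1a and 0.013 for Serpini2 at day 7, and no sex covariate gave -0.36 for Itih4. For Slpi between the sexes at day 14, RLE scaling gave 0.0081, no filter 0.0062 and DESeq2 0.0082. The cause was not tested.

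With only the mice compared in the fit, 1 member was called at day 14, Pi15 (adjusted p = 0.0449). DESeq2 called 1 member between the sexes at baseline and 1 for the interaction, Itih4 in both, and gave no adjusted p for Slpi and Pi15 between day 14 and day 7, so its count there is not given. Against the other pancreatic proteases, the Spink1 ratio at day 14 was -0.16 (log2) from day 7 and no longer passed. With the 20 most abundant genes out of the total, differences of shares in percentage points were, for day 7, day 14 and day 14 from day 7, 0.0277, 0.0539 and 0.0263 for the members together, -0.0040, 0.0177 and 0.0217 for Spink1, and 0.0350, 0.0420 and 0.0070 for Serpini2.

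Leaving out 1 mouse at a time kept 0 to 1 members called at day 14, 0 to 2 between day 14 and day 7, and 0 to 1 for the interaction. The Spink1 share at day 14 was -0.0125 to -0.00375 percentage points from day 7, and passed without mouse 12. Ranges of log2 differences that crossed 0 were, at day 7, -0.32 to 0.59 for Itih4, -0.069 to 0.047 for Serpinb1a and -0.075 to 0.043 for Serpini2. At day 14 they were -0.081 to 0.0094 for Cst3, -0.016 to 0.086 for Serpinb6a and -0.013 to 0.11 for Serpini2, and from day 7 to day 14 -0.045 to 0.014 for Serpinb6a and -0.080 to 0.025 for Serpini1. Between the sexes the range was -0.015 to 0.044 for Cst3. Between the sexes at baseline it was -0.25 to 0.25 for Pi15, -0.061 to 0.15 for Serpinb6a and -0.15 to 0.10 for Serpini1. At day 7 it was -0.10 to 0.0047 for Cst3, -0.32 to 0.0056 for Pi15, -0.013 to 0.22 for Serpinb1a, -0.038 to 0.20 for Serpini1 and -0.052 to 0.11 for Serpini2. At day 14 it was -0.019 to 0.13 for Serpini2 and -0.25 to 0.29 for Slpi. No paired analysis was possible because the mice of different groups share no number. Depth limits Slpi most among the called members, at 10 to 78 counts per library.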
